A study of Homo sapiens with 8 samples.

Results

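Translation initiation factors are the proteins that bring a ribosome to the start codon of an mRNA. Their genes were taken from the tables of annotated genes by name, as every symbol that begins with EIF and a digit between 1 and 6, leaving out symbols that end in P and digits, the form used for pseudogenes. The rule gave 54 of 20565 annotated genes. The report covers 53 of them, by level or by read count, and 42 had enough reads to test, of 4778 genes tested in all. By its wording the rule also drops EIF4EBP1, EIF4EBP2 and EIF4EBP3, which are functional 4E-binding proteins and are described separately. It keeps EIF1AD, EIF1B-AS1 and EIF3J-DT, which carry an initiation factor's name but are not initiation factors, and which had 37, 1 and 14 reads. The 11 genes with too few reads to test were EIF1AD, EIF1B-AS1, EIF2AK2, EIF2AK3, EIF2AK4, EIF2S3B, EIF3J-DT, EIF4E3, EIF4ENIF1, EIF4G3 and EIF5A2.

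Native RNA of 3 established human cell lines was read by Oxford Nanopore direct RNA sequencing, in which an RNA molecule passes through a pore without being copied. The lines were K562, a myelogenous leukaemia line, with 2 libraries, HepG2, a hepatocellular carcinoma line, with 3, and GM12878, a B-lymphoblastoid line, with 3. No treatment is named for any of them, and total RNA was the starting material of all. Whether libraries of 1 line came from separate cultures is not stated in the labels, and the p-values cover only the variation among these libraries, part of which may be technical.

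Read totals ran from 70374 to 461497 per library. The labels give K562 the same source description as GM12878, and defining markers were therefore checked. Summed levels of 5 erythroid and myeloid leukaemia markers were 20900 to 22200 CPM (reads scaled to a common library total) in K562, and all 5 were at 0 in HepG2 and in GM12878. The 5 hepatocyte markers summed to 94500 to 118000 CPM in HepG2, with all 5 at 0 in K562 and 4 of 5 at 0 in GM12878. The 5 B-lymphoblastoid markers summed to 8870 to 9620 CPM in GM12878, against 3.45 to 6.49 CPM in K562 and 188 to 287 CPM in HepG2. Of 5 markers of other cell types, EPCAM was read in HepG2 (133, 84.5 and 147 CPM) and K562 (45.4 and 100 CPM) but not in GM12878. The other markers of that list stayed at or below 11.6 CPM in each library. The pair of K562 libraries was the least alike of all pairs from 1 line, with a chi-square per degree of freedom of 4.65, against 1.35 to 2.73 in the other pairs. In bulk RNA, a smaller number of cells of a type and less RNA per cell cannot be told apart.

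Initiation begins when eIF2, carrying GTP and the initiator tRNA, joins the small ribosomal subunit together with eIF1, eIF1A, eIF3 and eIF5. The eIF4 proteins bind the mRNA cap and unwind the leader so that the loaded subunit can scan to the start codon, after which eIF5B brings the large subunit. eIF2B recharges eIF2 with GTP, and 4 kinases that phosphorylate eIF2 block this step under stress, which lowers general translation and favours mRNAs such as that of ATF4.

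Several factors have a close copy elsewhere in the genome, and these are shown first because a read can only be credited to 1 of them where they differ. The following are the first 60 coding bases from GENCODE release 29 on GRCh38, all on the plus strand, with capitals at the bases that differ within each pair. Coding sequence starts at chr17:41689039 for EIF1, chr3:40309942 for EIF1B, chr17:7309636 for EIF5A and chr10:79512650 for EIF5AL1.
EIF1: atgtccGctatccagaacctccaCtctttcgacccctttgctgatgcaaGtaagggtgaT
EIF1B: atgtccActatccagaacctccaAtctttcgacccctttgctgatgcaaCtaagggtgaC
EIF5A: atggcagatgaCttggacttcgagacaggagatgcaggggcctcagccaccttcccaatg
EIF5AL1: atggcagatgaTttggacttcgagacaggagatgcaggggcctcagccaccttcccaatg

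Over the whole coding sequence EIF1 and EIF1B differed at 61 of 339 bases (82.0% identity). EIF5A and EIF5AL1 differed at only 5 of 462 bases (98.9%), and EIF3C and EIF3CL at none of 2739 aligned bases, with 3 gap positions. EIF4A1 and EIF4A2 were 76.6% identical. Values of EIF3C, EIF3CL, EIF5A and EIF5AL1 are therefore uncertain as to which copy the reads came from.

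Summed over the reported genes, initiation factor mRNA did not separate the 3 lines after scaling. The summed level was 13800 ± 1530 CPM in K562 (SD, n = 2), 12400 ± 860 CPM in HepG2 (n = 3) and 12600 ± 333 CPM in GM12878 (n = 3), after TMM scaling. As a plain share of annotated reads, the sum was 1.38% ± 0.00283 in K562, 0.947% ± 0.0535 in HepG2 and 1.26% ± 0.0249 in GM12878. HepG2 was thus the lowest line by plain share, while under TMM its libraries overlapped those of GM12878. The tested genes were of above-median abundance, with a median over genes of the mean level of 173 CPM against 73.5 CPM for all tested genes.

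A gene was called higher or lower when its adjusted p in edgeR's quasi-likelihood test was under 0.05 and its fitted change at least 2-fold. In HepG2 against GM12878, 12 of the 42 tested genes were called (28.6%), 5 higher and 7 lower, where 49.1% of all tested genes were called (28% higher and 21.1% lower). K562 against GM12878 gave 3 calls of 42 (7.14%), all higher, with a background of 28.7% (13.9% higher and 14.8% lower). K562 against HepG2 gave 9 calls of 42 (21.4%), 7 higher and 2 lower, with a background of 44.1% (17.4% higher and 26.7% lower). The share called was below that of all tested genes in every comparison. The median size of the fitted log2 change was also smaller than over all tested genes, at 0.56 against 1.06 in HepG2 against GM12878, 0.40 against 0.71 in K562 against GM12878, and 0.51 against 0.95 in K562 against HepG2. Each pair of these comparisons shares the libraries of 1 line, so the 3 sets of calls are not independent.

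The split into higher and lower calls depended on scaling. Median log2 changes over the 42 genes were -0.30, 0.12 and 0.19 in the 3 comparisons, in the order above, against 0.02, 0 and -0.07 over all tested genes. With library totals and no scaling factor, the median of all tested genes moved to -0.33 in HepG2 against GM12878 and to 0.24 in K562 against HepG2. The calls were then 3 higher and 10 lower in HepG2 against GM12878, and 14 higher and 1 lower in K562 against HepG2. K562 against GM12878 kept 2 higher and 0 lower. Size factors of DESeq2 gave the same counts as TMM, 5 and 7, 3 and 0, and 7 and 2. In all, 15 genes were called in at least 1 comparison and 27 in none.

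**Figure D1:**
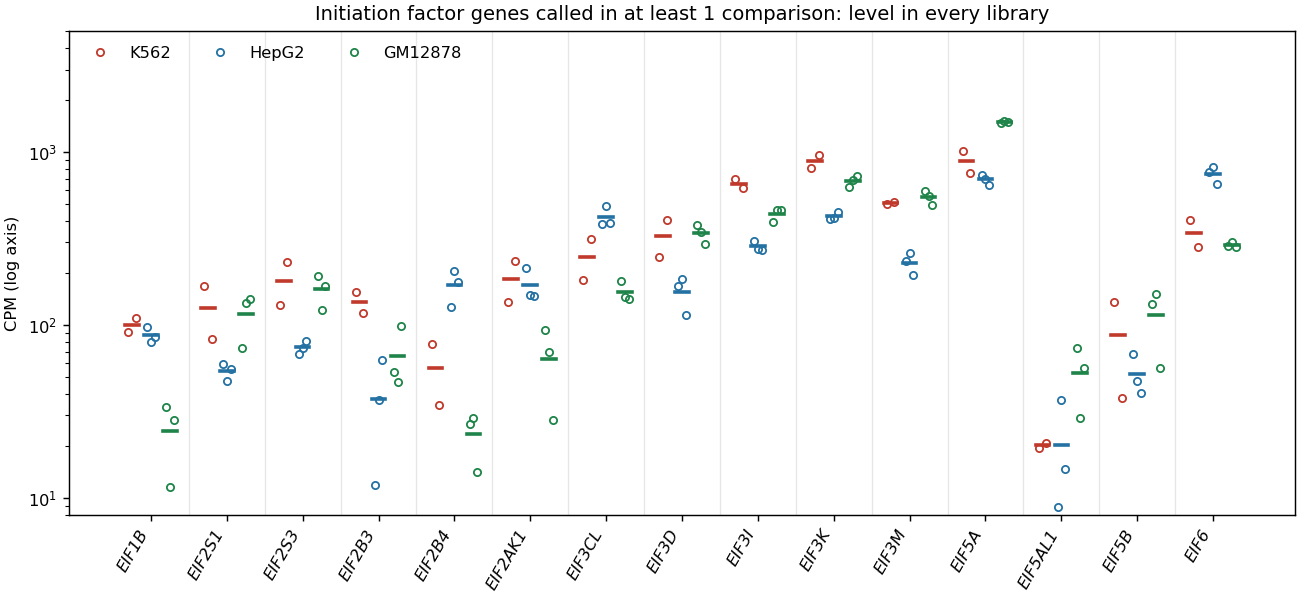
Level in CPM (log axis) of the 15 initiation factor genes called in at least 1 comparison, with 1 circle per library (2 of K562, 3 of HepG2, 3 of GM12878) and a bar at the mean of each line. HepG2 was called higher than both other lines for EIF2B4 and EIF6 and lower than both for EIF2S1, EIF2S3, EIF3D and EIF3M. Its libraries also lie above all others for EIF3CL and below all others for EIF3I, EIF3K and EIF5A, where HepG2 was called against 1 line only.

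**Figure D2:**
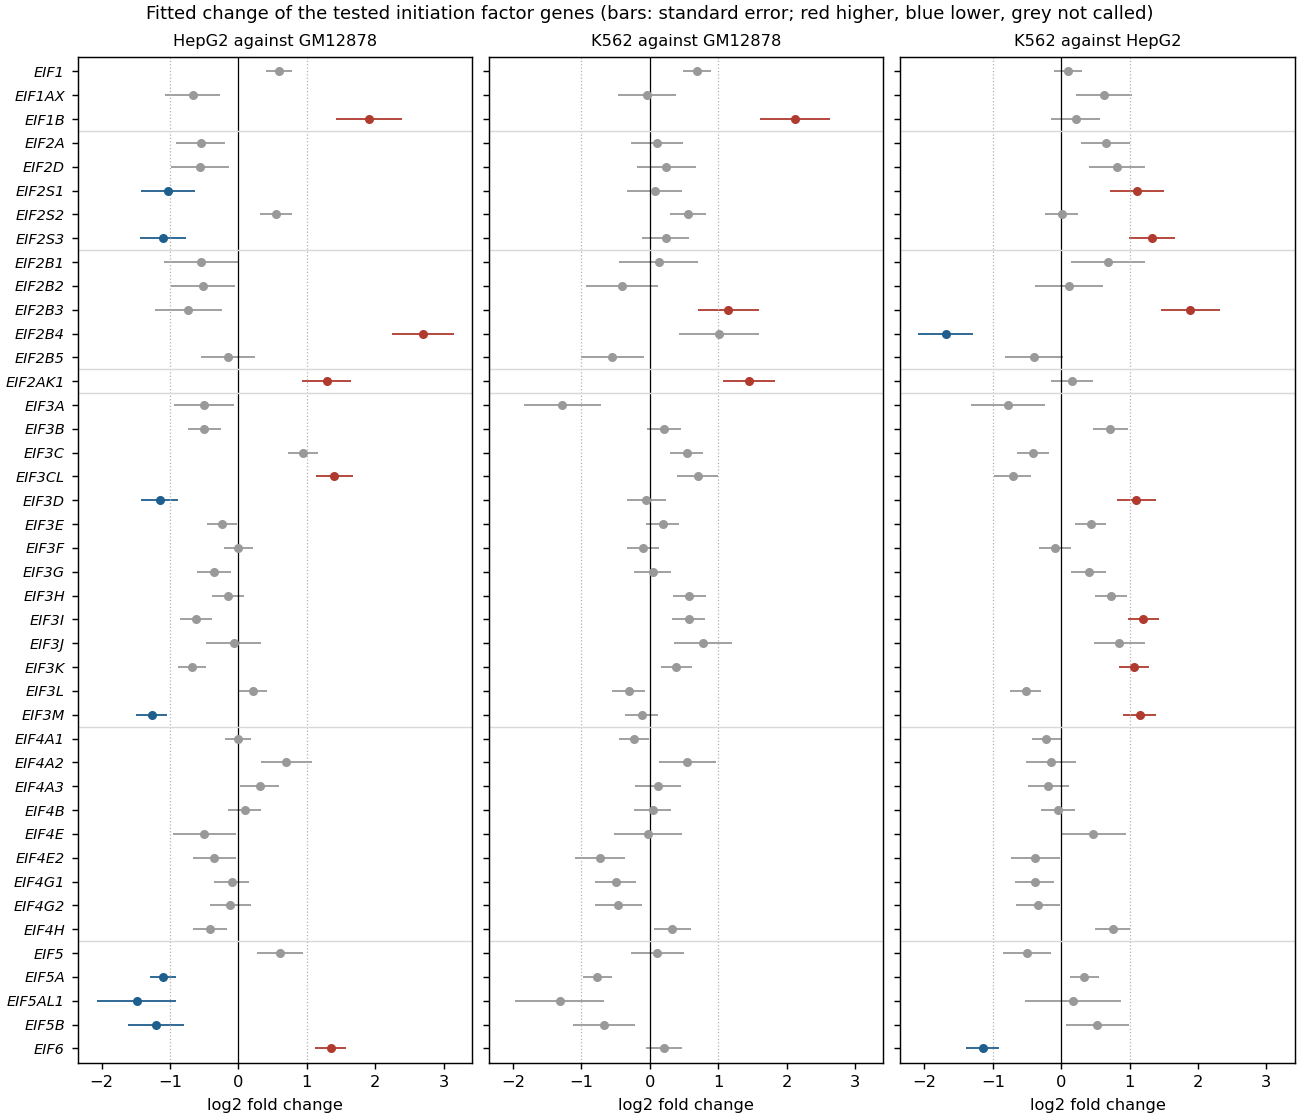
Fitted log2 fold change with its standard error for the 42 tested genes, ordered by role from eIF1 at the top to eIF6 at the bottom, in the 3 comparisons of cell lines. Dotted lines mark a 2-fold change, and 12, 3 and 9 genes are coloured as called from left to right.

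Of eIF1 and eIF1A, which hold the scanning subunit in its open form, the main gene EIF1 (ENSG00000173812.10, chr17:41688885-41692668, plus strand) was the most read initiation factor gene, with 2678 reads. It had 1360 and 2290 CPM in the K562 libraries, 1830, 1920 and 1390 CPM in the HepG2 libraries, and 1070, 1150 and 1220 CPM in the GM12878 libraries. Every K562 and HepG2 library lay above every GM12878 library, but the fitted change was under 2-fold, with a log2 change of 0.59 (SE 0.19, adjusted p = 0.00777, edgeR) in HepG2 and 0.69 (SE 0.21, adjusted p = 0.00851) in K562 against GM12878.

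Its paralogue EIF1B (ENSG00000114784.3, chr3:40309684-40312424, plus strand), whose coding start is printed above beside that of EIF1, moved further. EIF1B had 90.8 and 110 CPM in K562, 97.7, 79.2 and 84.8 CPM in HepG2, and 33.3, 11.6 and 28.1 CPM in GM12878, where the 3 libraries held 5, 2 and 2 reads. No library of either other line overlapped those of GM12878. The log2 change was 1.91 (SE 0.48, adjusted p = 0.000691, edgeR) in HepG2 against GM12878 and 2.12 (SE 0.51, adjusted p = 0.000807) in K562 against GM12878, while K562 and HepG2 were not called apart. EIF1AX, the X-linked eIF1A gene, averaged 91.0 ± 45.7 CPM in K562, 56.7 ± 15.4 CPM in HepG2 and 89.1 ± 12 CPM in GM12878 (SD, n = 2, 3 and 3) and was called in no comparison. The level of its Y-linked copy is not reported.

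eIF2 has 3 subunits, and 2 of them were lower in HepG2 than in both other lines. EIF2S1 (ENSG00000134001.12, chr14:67359997-67386516, plus strand), the alpha subunit that the stress kinases phosphorylate, had 169 and 82.8 CPM in K562, 59.2, 47.5 and 55.3 CPM in HepG2, and 73.3, 134 and 141 CPM in GM12878. EIF2S3 (ENSG00000130741.10, chrX:24054716-24077971, plus strand), the gamma subunit that binds GTP and the tRNA, had 130 and 231 CPM in K562, 68.1, 74.0 and 81.1 CPM in HepG2, and 193, 122 and 169 CPM in GM12878. For both genes the HepG2 libraries lay below all others. EIF2S1 changed by -1.03 on the log2 scale in HepG2 against GM12878 (SE 0.39, adjusted p = 0.0208, edgeR) and by 1.11 in K562 against HepG2 (SE 0.40, adjusted p = 0.0165). EIF2S3 changed by -1.10 (SE 0.34, adjusted p = 0.00467, edgeR) and 1.33 (SE 0.34, adjusted p = 0.000786) in the same comparisons. The EIF2S1 calls rested on 138 reads over 8 libraries, and DESeq2 gave adjusted p-values of 0.0784 and 0.0652 for them. The adjusted p of the HepG2 call of EIF2S1 was 0.0755 with no Genomic models, 0.0657 with no filter on low counts and 0.162 with Known models only, and with Known models only that of the K562 call was 0.0669. EIF2S3 in HepG2 against GM12878 was just under 2-fold with no filter (-0.99). Leaving out GM12878 replicate 2 or 3, any 1 HepG2 library or K562 replicate 2 also ended the HepG2 call of EIF2S1 (log2 changes of -1.04 to -0.88), and leaving out GM12878 replicate 1 or HepG2 replicate 1 that of EIF2S3 (-0.90 and -0.96). Without HepG2 replicate 3 (adjusted p = 0.0518) or K562 replicate 1 (log2 change 0.65) the K562 call of EIF2S1 was lost, and without K562 replicate 2 that of EIF2S3 (0.79).

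The beta subunit gene EIF2S2 did not move with the other two, averaging 474 ± 139 CPM in K562, 476 ± 98.2 CPM in HepG2 and 319 ± 59.5 CPM in GM12878 (SD, n = 2, 3 and 3), and was called in no comparison. EIF2S3B, an autosomal copy of EIF2S3, had 1 read in all. EIF2A and EIF2D, which can deliver the initiator or other tRNAs without eIF2, were not called either. EIF2A averaged 122 ± 52.6 CPM in K562, 80.2 ± 23.0 CPM in HepG2 and 121 ± 17.5 CPM in GM12878, and EIF2D 79.2 ± 29.4, 46.8 ± 4.14 and 77.2 ± 31.4 CPM in the same order.

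The 5 subunits of eIF2B moved in different directions. EIF2B4 (ENSG00000115211.15, chr2:27364352-27370486, minus strand), the delta subunit of the regulatory core, had 77.9 and 34.5 CPM in K562, 127, 206 and 177 CPM in HepG2, and 26.7, 29.1 and 14.1 CPM in GM12878. All HepG2 libraries were above all others, with the largest fitted change of the 42 genes. EIF2B4 changed by 2.70 on the log2 scale in HepG2 against GM12878 (SE 0.45, adjusted p = 1.1e-06, edgeR) and by -1.69 in K562 against HepG2 (SE 0.40, adjusted p = 0.000419). EIF2B3 (ENSG00000070785.16, chr1:44850522-44986722, minus strand), the gamma subunit of the catalytic part, had 156 and 117 CPM in K562, 11.8, 37.0 and 62.6 CPM in HepG2, and 53.3, 46.5 and 98.4 CPM in GM12878. Here both K562 libraries were the highest. EIF2B3 changed by 1.15 in K562 against GM12878 (SE 0.45, adjusted p = 0.0436, edgeR) and by 1.89 in K562 against HepG2 (SE 0.43, adjusted p = 0.000214). The first of these was lost in DESeq2 (adjusted p = 0.188) and without GM12878 replicate 1, GM12878 replicate 2 or K562 replicate 1, and its adjusted p was 0.0651 without Genomic models and 0.0514 with no scaling factor. The change of EIF2B3 in K562 against HepG2 was 2.55 without HepG2 replicate 3 and 2.48 with the replicate block. EIF2B1, EIF2B2 and EIF2B5 were called in no comparison, with means of 56.0 ± 40.1, 38.9 ± 18.2 and 51.8 ± 0.113 CPM in K562, 29.4 ± 18.7, 38.5 ± 11.3 and 68.2 ± 4.16 CPM in HepG2, and 42.7 ± 13, 55.4 ± 14.9 and 73.7 ± 28.6 CPM in GM12878 (SD, n = 2, 3 and 3).

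Of the 4 eIF2 kinases only EIF2AK1 (ENSG00000086232.12, chr7:6022244-6059230, minus strand), the kinase regulated by heme, had enough reads to test. It had 136 and 235 CPM in K562, 213, 148 and 147 CPM in HepG2, and 93.3, 69.8 and 28.1 CPM in GM12878, with no overlap between GM12878 and the other lines. EIF2AK1 changed by 1.45 on the log2 scale in K562 against GM12878 (SE 0.38, adjusted p = 0.00217, edgeR) and by 1.29 in HepG2 against GM12878 (SE 0.36, adjusted p = 0.00171). Of its 257 reads, 52.5% were on Genomic models, those that overlap the gene without matching its splicing, and 124 reads were on 1 single-exon model of 523 bases. Without Genomic models neither call held, with adjusted p-values of 0.0649 in K562 and 0.0726 in HepG2 against GM12878. Without K562 replicate 2 the K562 call was lost too (adjusted p = 0.131), and with no scaling factor the HepG2 change was 0.88. EIF2AK2, EIF2AK3 and EIF2AK4, which sense double-stranded RNA, unfolded proteins and amino acid shortage, had 18, 15 and 33 reads in all.

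eIF3, the largest initiation factor and the scaffold between ribosome and mRNA, had 14 tested genes. In HepG2 against GM12878, 1 was called higher and 2 lower, with a background of 49.1% of all tested genes called. None was called in K562 against GM12878 (background 28.7%), where no adjusted p of the 14 was under 0.05 in edgeR. In K562 against HepG2, 4 were called higher, with a background of 44.1%.

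EIF3D (ENSG00000100353.17, chr22:36510850-36529436, minus strand), a subunit that can bind the cap of some mRNAs, had 247 and 404 CPM in K562, 169, 185 and 114 CPM in HepG2, and 380, 343 and 295 CPM in GM12878. EIF3M (ENSG00000149100.12, chr11:32583798-32606262, plus strand), of the octamer core, had 500 and 514 CPM in K562, 234, 259 and 195 CPM in HepG2, and 593, 558 and 492 CPM in GM12878. The HepG2 libraries of both genes lay below all others. EIF3D changed by -1.15 on the log2 scale in HepG2 against GM12878 (SE 0.27, adjusted p = 0.000216, edgeR) and by 1.10 in K562 against HepG2 (SE 0.28, adjusted p = 0.000777). EIF3M changed by -1.27 (SE 0.23, adjusted p = 3.55e-06, edgeR) and 1.15 (SE 0.24, adjusted p = 6.71e-05). The fold of EIF3D fell under 2 in both comparisons without HepG2 replicate 3 (log2 changes of -0.85 and 0.86) and in the second without K562 replicate 2 (0.65) or with the replicate block (0.92), and that of EIF3M in the second without HepG2 replicate 3 (0.99).

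EIF3I and EIF3K were highest in K562. EIF3I (ENSG00000084623.11, chr1:32221928-32231604, plus strand), which binds eIF3 through EIF3B, had 694 and 618 CPM in K562, 305, 275 and 273 CPM in HepG2, and 393, 465 and 464 CPM in GM12878. EIF3K (ENSG00000178982.9, chr19:38619082-38636955, plus strand), which pairs with EIF3L, had 811 and 962 CPM in K562, 409, 417 and 450 CPM in HepG2, and 627, 692 and 731 CPM in GM12878. Both genes had the order K562, GM12878, HepG2 with no overlap. The log2 change in K562 against HepG2 was 1.20 for EIF3I (SE 0.23, adjusted p = 1.87e-05, edgeR) and 1.07 for EIF3K (SE 0.22, adjusted p = 3.81e-05). HepG2 against GM12878 also had adjusted p-values of 0.0161 and 0.00425 in edgeR, at log2 changes of -0.62 and -0.68 that are under the 2-fold limit. In K562 against GM12878 neither was called, at 0.57 for EIF3I (SE 0.24, adjusted p = 0.0599, edgeR) and 0.39 for EIF3K (SE 0.22, adjusted p = 0.183). Without K562 replicate 2 the change of EIF3K in K562 against HepG2 was 0.91, under 2-fold.

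EIF3CL and EIF3C were highest in HepG2. EIF3CL (ENSG00000205609.12, chr16:28379579-28403879, minus strand) had 182 and 314 CPM in K562, 382, 486 and 391 CPM in HepG2, and 180, 145 and 141 CPM in GM12878. EIF3C (chr16:28688558-28735730, plus strand) had 448 and 611 CPM in K562, 740, 719 and 667 CPM in HepG2, and 367, 361 and 380 CPM in GM12878. No library of K562 or GM12878 reached those of HepG2 for either gene. EIF3CL changed by 1.40 on the log2 scale in HepG2 against GM12878 (SE 0.27, adjusted p = 1.24e-05, edgeR), and EIF3C by 0.95 (SE 0.22, adjusted p = 0.000192), just under the 2-fold limit. In K562 against HepG2 neither was called, at -0.71 for EIF3CL (SE 0.27, adjusted p = 0.0235, edgeR) and -0.41 for EIF3C (SE 0.23, adjusted p = 0.13). Of the reads given to EIF3CL only 1.77% matched a known model and 91.1% were incomplete splice matches. Apart from 3 gap positions the coding bases of the 2 loci were the same, so they can hardly tell the loci apart. Bases outside the coding sequence were not compared.

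The other 8 eIF3 genes were called in no comparison. EIF3L (chr22:37848868-37889407, plus strand), the most read of eIF3, had 363 and 700 CPM in K562, 785, 877 and 689 CPM in HepG2, and 647, 768 and 590 CPM in GM12878, with overlap between all lines. EIF3A and EIF3B, the large scaffold subunits, averaged 25.5 ± 17.7 and 460 ± 10.8 CPM in K562, 47.7 ± 13.9 and 281 ± 56.7 CPM in HepG2, and 64.6 ± 43.9 and 400 ± 32.4 CPM in GM12878 (SD, n = 2, 3 and 3). EIF3F and EIF3H, which form the MPN pair, averaged 523 ± 153 and 668 ± 128 CPM in K562, 567 ± 18.7 and 405 ± 10.3 CPM in HepG2, and 565 ± 60 and 462 ± 117 CPM in GM12878. For EIF3B and EIF3H the K562 libraries lay above those of HepG2, with adjusted p-values of 0.0126 and 0.00696 in edgeR but changes under 2-fold. EIF3E averaged 578 ± 212 CPM in K562, 435 ± 12 CPM in HepG2 and 513 ± 34.6 CPM in GM12878. EIF3G, which binds RNA, averaged 316 ± 61.0 CPM in K562, 243 ± 15.2 CPM in HepG2 and 315 ± 25.8 CPM in GM12878. EIF3J, a loosely bound subunit, averaged 139 ± 50.7 CPM in K562, 76.1 ± 27.4 CPM in HepG2 and 83.0 ± 25.6 CPM in GM12878.

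None of the 9 tested eIF4 genes was called in any comparison, where 49.1%, 28.7% and 44.1% of all tested genes were called. In edgeR 1 adjusted p of these 27 tests was under 0.05, that of EIF4H in K562 against HepG2 (log2 change 0.75, SE 0.26, adjusted p = 0.0128). EIF4A1, the main helicase of the cap complex, had 928 and 704 CPM in K562, 918, 1040 and 877 CPM in HepG2, and 920, 972 and 956 CPM in GM12878. Its log2 change in HepG2 against GM12878 was -0.01 (SE 0.19). EIF4A1 overlaps the read-through gene SENP3-EIF4A1 on the same strand. The second helicase, EIF4A2, averaged 115 ± 71.2 CPM in K562, 135 ± 30.3 CPM in HepG2 and 75.7 ± 41.2 CPM in GM12878 (SD, n = 2, 3 and 3), and EIF4A3, the related helicase of the exon junction complex, 174 ± 46.8, 192 ± 28.8 and 157 ± 15.2 CPM in the same order.

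The cap-binding protein gene EIF4E averaged 56.8 ± 2.26 CPM in K562, 38.5 ± 20.4 CPM in HepG2 and 54.8 ± 18.2 CPM in GM12878 (SD, n = 2, 3 and 3). Its relative EIF4E2, which binds the cap without recruiting eIF4G and is known as a repressor, was above it in every library, at 98.3 ± 17.0 CPM in K562, 127 ± 35.5 CPM in HepG2 and 155 ± 37.9 CPM in GM12878. EIF4E3 had 2 reads in all. The scaffold gene EIF4G1 averaged 185 ± 41.6 CPM in K562, 240 ± 38.0 CPM in HepG2 and 259 ± 37.7 CPM in GM12878. EIF4G2, a shortened relative that lacks the EIF4E-binding region, averaged 140 ± 12.8, 178 ± 68.5 and 194 ± 23.7 CPM in the same order. EIF4G3 had only 29 reads. EIF4B and EIF4H, the RNA-binding cofactors of the helicase, averaged 330 ± 99.5 and 387 ± 42.8 CPM in K562, 350 ± 21 and 235 ± 48.3 CPM in HepG2, and 322 ± 48.4 and 306 ± 38.1 CPM in GM12878. EIF4ENIF1, the transporter of EIF4E, had 29 reads. A read stands for 1 molecule here, so these levels are per molecule and were not divided by length.

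At the last steps, EIF5A and EIF6 moved in opposite directions. EIF5A (ENSG00000132507.17, chr17:7306999-7312463, plus strand), which despite its name acts mainly in elongation and termination, had 1020 and 756 CPM in K562, 737, 697 and 649 CPM in HepG2, and 1480, 1520 and 1500 CPM in GM12878. EIF6 (ENSG00000242372.7, chr20:35278911-35284985, minus strand), which keeps large subunits from joining small ones, had 402 and 283 CPM in K562, 770, 819 and 652 CPM in HepG2, and 287, 302 and 281 CPM in GM12878. GM12878 was the highest line for EIF5A and HepG2 for EIF6, with no overlap. EIF5A changed by -1.11 on the log2 scale in HepG2 against GM12878 (SE 0.19, adjusted p = 1.21e-06, edgeR) and by -0.77 in K562 against GM12878 (SE 0.21, adjusted p = 0.00321), the second under the 2-fold limit. EIF6 changed by 1.35 in HepG2 against GM12878 (SE 0.23, adjusted p = 1.04e-06, edgeR) and by -1.15 in K562 against HepG2 (SE 0.24, adjusted p = 7.69e-05). With no scaling factor the EIF6 changes were 0.95 and -0.73, both under 2-fold. Without HepG2 replicate 3 that of EIF5A was -0.95, and without K562 replicate 2 that of EIF6 in K562 against HepG2 was -0.91.

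EIF5B (ENSG00000158417.10, chr2:99337353-99401326, plus strand), the GTPase that joins the subunits, had 136 and 38.0 CPM in K562, 68.1, 47.5 and 40.5 CPM in HepG2, and 133, 151 and 56.2 CPM in GM12878. EIF5AL1 (ENSG00000253626.3, chr10:79512601-79516440, plus strand), the near copy of EIF5A printed above, had 19.5 and 20.7 CPM in K562, 8.88, 37.0 and 14.7 CPM in HepG2, and 73.3, 29.1 and 56.2 CPM in GM12878. Both were called lower in HepG2 than in GM12878 although their libraries overlapped. EIF5B changed by -1.20 (SE 0.41, adjusted p = 0.0103, edgeR; 0.078 in DESeq2) and EIF5AL1 by -1.49 (SE 0.58, adjusted p = 0.026; 0.126 in DESeq2). The call of EIF5B was lost without GM12878 replicate 1, GM12878 replicate 2 or HepG2 replicate 3 (adjusted p of 0.0524 to 0.0959, edgeR), and that of EIF5AL1 without HepG2 replicate 1 or HepG2 replicate 3 (0.166 and 0.0959), with no filter (0.0739) and with the replicate block (0.0534). EIF5AL1 passed the filter only through GM12878 replicates 1 and 3, where it was highest, and was not tested without either of them. The direction of its call was thus partly set by the filter. All 43 reads of EIF5AL1 were on Genomic models. EIF5, the GTPase activator of eIF2, averaged 116 ± 56.4 CPM in K562, 153 ± 24.4 CPM in HepG2 and 98.0 ± 16.5 CPM in GM12878 (SD, n = 2, 3 and 3) and was called in no comparison. EIF5A2 had 13 reads, none of them in GM12878.

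TALON, the program behind the tables, gives each read a transcript model. Of the 21094 reads of initiation factor genes, 38.4% were on Known models, 31.4% on incomplete splice matches (ISM), 17.9% on new combinations of annotated splice sites (NIC), 5.17% on models with an unannotated site (NNC) and 7.14% on Genomic models. Among ISM reads, 89.1% were on models that lack the 5′ end of the transcript. The ISM share was 29.4% ± 1.13 in K562 (SD, n = 2), 34.1% ± 1.5 in HepG2 (n = 3) and 28.8% ± 0.375 in GM12878 (n = 3), and over all annotated genes 18.2%, 26.4% and 18.2% in the same order. Initiation factor genes thus had a larger ISM share than all genes in each line, and both sets had their highest ISM share in HepG2. The Known share was 39.9% ± 0.852 in K562, 36.2% ± 2.43 in HepG2 and 39.7% ± 0.958 in GM12878.

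**Figure D3:**
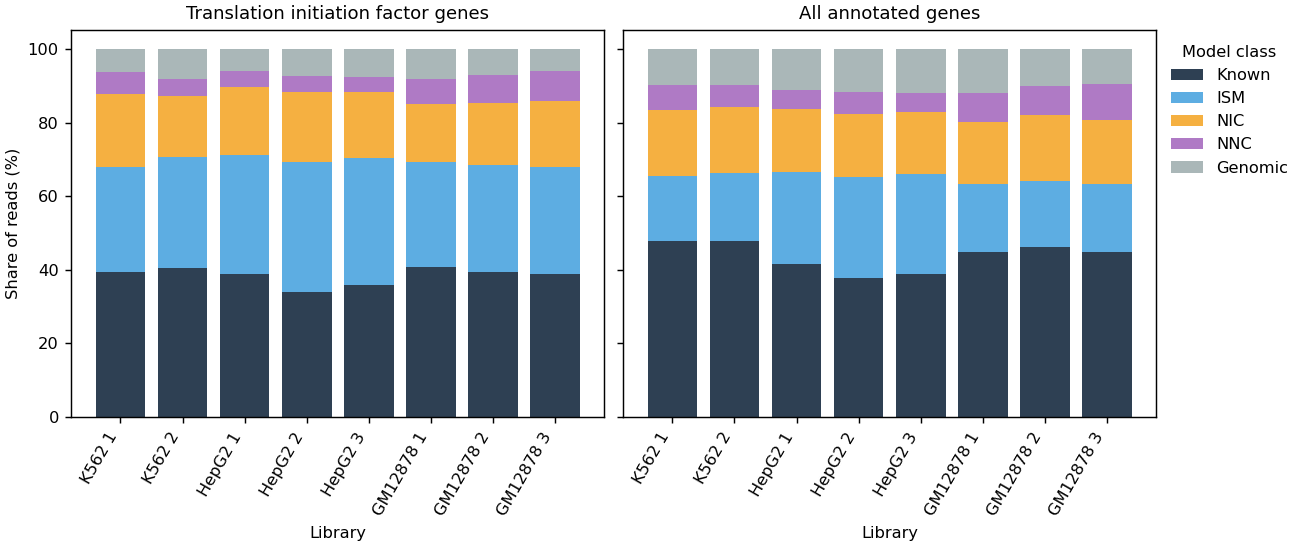
Share of reads (%) on each class of transcript model in each of the 8 libraries, for initiation factor genes at left and all annotated genes at right. The ISM band is wider at left, at 28.4 to 35.4% of reads against 17.8 to 27.2% at right.

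The Known share varied widely between genes. Over the 35 genes with at least 100 reads and a coding known model, it ran from 1.77% for EIF3CL to 82.2% for EIF1, with a median of 24.9%. Across these genes its Spearman correlation was -0.65 with the exon number of the main coding model and -0.45 with its length, a description over genes of the same libraries. EIF1, with 4 exons, was at 82.2%, whereas EIF4G1, with 32 exons, was at 4.96% and EIF3B, with 19, at 2.43%. None of the 170 reads of EIF2A was on a Known model. Genomic models took 51.5% of the reads of EIF4B, 47.4% of EIF4H, 48.1% of EIF2S3 and 61.1% of EIF1AX.

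Some models absent from the annotation outnumbered the annotated coding model. EIF3L had 345 reads on an NIC model of 3 exons and 397 bases, against 148 on its main coding transcript EIF3L-203, of 13 exons. EIF3I had 338 reads on an NIC model of 10 exons and 1481 bases, against 44 on EIF3I-202, of 11 exons. Both NIC models had reads in all 8 libraries. Of the EIF3I model, 46 and 89 reads came from K562, 54, 26 and 33 from HepG2, and 31, 46 and 13 from GM12878. Model classes were tested for 40 genes, and none was called in any comparison by edgeR's diffSpliceDGE, where 0.5%, 0.167% and 0.0333% of 3000 genes were called in HepG2 against GM12878, K562 against GM12878 and K562 against HepG2. At an unadjusted p under 0.05 there were 6, 3 and 1 of the 40.

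The use of known transcripts could be tested for 14 genes, and none was called in any of the 3 comparisons, in the same order, where the background was 1.63%, 0.592% and 0.888% of 676 genes. Unadjusted p-values under 0.05 numbered 5, 0 and 2 of the 14 in diffSpliceDGE. Shares in this paragraph are means of libraries over the tested transcripts of a gene, those with at least 10 reads, and transcripts were picked after their values were seen. EIF6-203, the coding model with 7 exons, held 58.6% of EIF6 reads in K562, 28% in HepG2 and 55.1% in GM12878, with adjusted p-values of 0.382 in HepG2 against GM12878 and 0.506 in K562 against HepG2 (diffSpliceDGE). EIF3L-203 held 41% in HepG2 and 73% in GM12878 (adjusted p = 0.344, diffSpliceDGE). EIF3K-203 held 10.3% in HepG2 and 24% in GM12878 (adjusted p = 0.347, diffSpliceDGE). None of these shifts passed the test.

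Annotated models with a retained intron took their highest share of reads in HepG2, for initiation factor genes and for all annotated genes. Their share of all known-model reads of initiation factor genes was 4.82% and 7.69% in the K562 libraries, 11.9%, 12.2% and 19.1% in the HepG2 libraries, and 6.74%, 6.24% and 6.36% in the GM12878 libraries. Over all annotated genes the same share was 6.76% and 6.81% in K562, 7.18%, 8.25% and 8.86% in HepG2, and 6.84%, 6.99% and 6.94% in GM12878. In both sets every HepG2 library was above every library of the other lines. Of 16 such models of initiation factor genes with at least 10 reads, 13 had their highest pooled share in HepG2 (81.2%), and of 642 such models of all annotated genes 336 did (52.3%). The minimum of 10 reads ran over all libraries, so a model could reach it mainly through HepG2. EIF3C-208, for example, had 9 of its 10 reads there. Both counts were thus partly set by the filter. Models of 1 gene share reads and the difference between the sets was not tested. EIF3C-207 held 38 of 70 known reads in K562 (54.3%, exact 95% interval 41.9 to 66.3), 109 of 147 in HepG2 (74.1%, 66.3 to 81.0) and 23 of 53 in GM12878 (43.4%, 29.8 to 57.7). This model had 170 of the 811 retained-intron reads of initiation factor genes, and reads of EIF3C are uncertain as to which copy they came from. EIF1-202 held 3.45% of EIF1's known reads in K562, 7.66% in HepG2 and 2.89% in GM12878. Replicate 3 gave 42 of its 84 HepG2 reads, and its mean share over the HepG2 libraries was 8.29% (SD 4.98, n = 3). This is a description with no test: TALON assigns by splice junctions and the tables do not record where reads end, so whether a read held the intron is not known. The ISM share was also highest in HepG2, and its part in this difference was not tested.

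**Figure D4:**
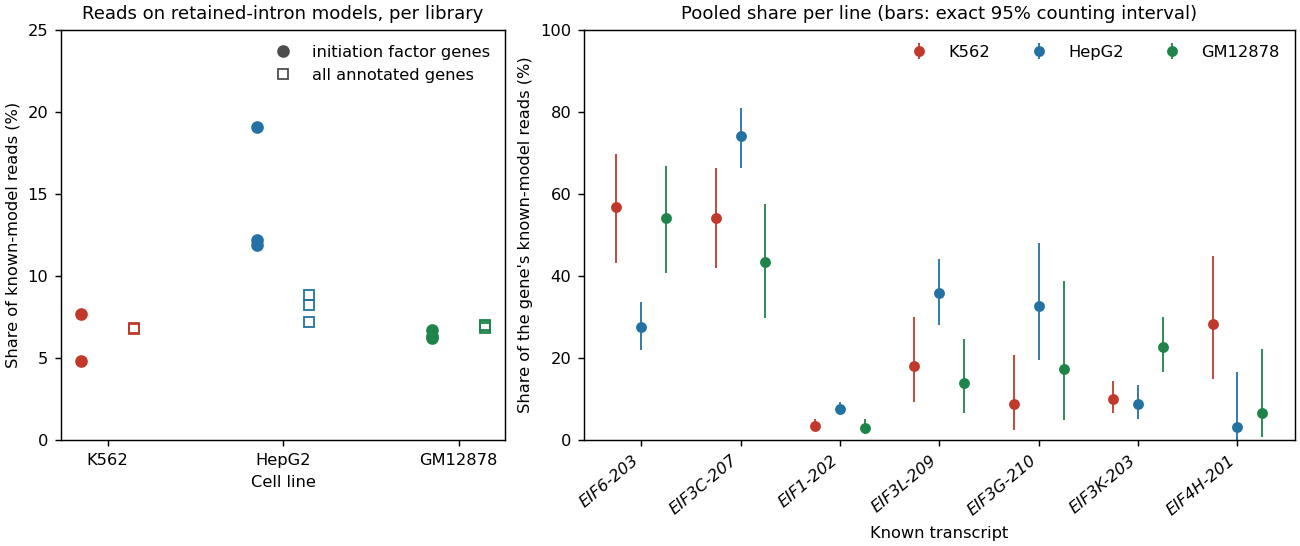
Left, share of known-model reads (%) on annotated retained-intron models in each library, for initiation factor genes (filled) and all annotated genes (open squares). Right, share of the gene's known-model reads (%) on 7 transcripts, pooled over the libraries of each line with the exact 95% counting interval. HepG2 libraries lie at 11.9 to 19.1% at left, and none of the shifts at right passed the test over replicates.

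In EIF4H, an RNA-binding cofactor of the EIF4A helicase, the 2 coding models differ by 1 exon of 60 bases at chr7:74190247-74190306 (GRCh38, plus strand). The exon is printed in capitals between bases of the neighbouring exons, and below it the junction without the exon.
EIF4H-201: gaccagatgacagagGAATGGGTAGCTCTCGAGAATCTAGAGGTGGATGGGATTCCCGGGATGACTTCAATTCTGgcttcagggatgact
EIF4H-202: gaccagatgacagaggcttcagggatgact

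EIF4H-201, which holds the exon, took 11 of 39 known reads in K562 (28.2%, exact 95% interval 15 to 44.9), 1 of 31 in HepG2 (3.23%, 0.0816 to 16.7) and 2 of 30 in GM12878 (6.67%, 0.818 to 22.1). Among known-model reads the exon was thus seen mostly in K562. The shift did not pass the test, with adjusted p-values of 0.302 in K562 against HepG2 and 0.883 in K562 against GM12878 (diffSpliceDGE). Known models held only 20.8% of the 481 reads of EIF4H, and the other reads were not examined for the exon. Intervals cover counting error only.

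EIF4A2 has a pair of coding models whose first splice junction differs by 3 bases, shown in capitals, on chromosome 3 (plus strand). The reads were too few in GM12878 for a test.
EIF4A2-205: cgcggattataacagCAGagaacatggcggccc
EIF4A2-201: cgcggattataacagagaacatggcggccc

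EIF4A2-205 took 10 of 17 known reads in K562 (58.8%, exact 95% interval 32.9 to 81.6), 5 of 27 in HepG2 (18.5%, 6.3 to 38.1) and 2 of 6 in GM12878. EIF4A2-201 took 2 of 17 in K562 (11.8%, 1.46 to 36.4), 17 of 27 in HepG2 (63.0%, 42.4 to 80.6) and 0 of 6 in GM12878, which allows a share of up to 45.9%. The models also differ in length, at 1889 and 1919 bases.

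The 4E-binding proteins hold EIF4E away from EIF4G until mTOR phosphorylates them. EIF4EBP1 had 324 and 342 CPM in K562, 403, 423 and 313 CPM in HepG2, and 60, 52.4 and 56.2 CPM in GM12878. Every library of K562 and HepG2 lay above those of GM12878. The log2 change was 2.56 in K562 against GM12878 (SE 0.34, adjusted p = 1.81e-08, edgeR) and 2.74 in HepG2 against GM12878 (SE 0.32, adjusted p = 1.14e-10), and both calls held without each library in turn. EIF4EBP2 was not called, at 100 ± 4.36 CPM in K562, 120 ± 26.5 CPM in HepG2 and 89.4 ± 17.5 CPM in GM12878 (SD, n = 2, 3 and 3). EIF4EBP3 had 5 reads in all.

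Of 22 partners and regulators of initiation, 14 were tested. The backgrounds called either way stay 49.1%, 28.7% and 44.1% for the 3 comparisons in the order used above, also for the lists that follow. HepG2 against GM12878 had 1 called higher, ATF4, and 3 lower, ABCE1, MCTS1 and MKNK2. ATF4, the transcription factor translated when eIF2 is phosphorylated, averaged 556 ± 146 CPM in HepG2 and 233 ± 6.05 CPM in GM12878 (log2 change 1.27, SE 0.27, adjusted p = 9.09e-05, edgeR). MCTS1, which releases used small subunits with DENR, averaged 74.6 ± 26.9 CPM in HepG2 and 207 ± 57.3 CPM in GM12878 (log2 change -1.55, SE 0.32, adjusted p = 4.55e-05, edgeR). K562 against GM12878 had 1 called higher, PPP1R15A, the phosphatase subunit that reverses eIF2 phosphorylation, with a log2 change of 1.38 (SE 0.54, adjusted p = 0.0438, edgeR). K562 against HepG2 had 3 higher, PPP1R15A, PABPC4 and MCTS1, and 1 lower, DDX3X. Leaving out 1 library ended some of these calls: ABCE1 without GM12878 replicate 2, PABPC4 without HepG2 replicate 1, PPP1R15A in K562 against GM12878 without GM12878 replicate 1, GM12878 replicate 2 or K562 replicate 2, DDX3X without HepG2 replicate 1, HepG2 replicate 3 or K562 replicate 2, and MKNK2 in 5 of the 8 cases. The poly(A)-binding protein PABPC1, the most abundant of the list, was not called. PPP1R15A would not have passed the filter without K562, the line where it was high. ABCE1 passed only through GM12878 replicates 1 and 2, where it was highest. The direction of the calls of PPP1R15A and ABCE1 was thus partly set by the filter.

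Of 14 elongation and termination genes, 10 were tested. ETF1 and GSPT1, the paired release factors, were both called higher in HepG2, by 1.47 and 1.33 on the log2 scale against GM12878 (SE 0.28 and 0.27, adjusted p = 1.21e-05 and 3.52e-05, edgeR), and K562 against HepG2 gave -1.09 and -1.32. The change of ETF1 in K562 against HepG2 was just under 2-fold without GM12878 replicate 2 (-0.97) or K562 replicate 2 (-0.99). EEF1A2, a form of the elongation factor that is usual in muscle and neurons, had 97.3 and 134 CPM in K562, 8.88, 10.6 and 3.69 CPM in HepG2, and no read in GM12878. It was called higher in K562 than in HepG2 (log2 change 3.88, SE 0.56, adjusted p = 6.69e-08, edgeR) and than in GM12878 (adjusted p = 1.48e-07). EEF1A2 passed the filter through K562 alone, the line where it was high. EEF1A1, the most read gene of the list, was not called.

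Genes that ATF4 switches on after eIF2 phosphorylation numbered 10, of which 6 were tested. In HepG2 against GM12878, 3 of the 6 were called, TRIB3, PSAT1 and PHGDH, all higher, close to the background of 49.1% of all tested genes called (28% higher). K562 against GM12878 had 4 of 6, TRIB3, ASNS, SESN2 and PSAT1, all higher, with a background of 28.7% (13.9% higher). K562 against HepG2 had ASNS higher and PHGDH lower, 2 of 6, with a background of 44.1%. ASNS passed the filter through K562 alone, the line where it was high, so these K562 counts were partly set by the filter. The K562 libraries differed widely from each other here. In replicate 1 and replicate 2, DDIT4 had 90.8 and 1000 CPM, TRIB3 84.3 and 524 CPM, ASNS 64.9 and 404 CPM, and PHGDH 32.4 and 245 CPM. Replicate 2 was the higher in each of these 4 genes. Leaving out 1 K562 library left 1 in the line. The filter, run again, then tested 5 genes of this list without replicate 2 and 8 without replicate 1. Without replicate 1 a gene could enter the test through replicate 2 alone, so only log2 changes are given here for these fits. The TRIB3 change against GM12878 was 3.65 with both K562 libraries, 1.73 without replicate 2 and 4.38 without replicate 1. The PHGDH change against HepG2 was -1.81, with -4.06 without replicate 2 and -1.09 without replicate 1. Likewise ASNS changed by 3.42 against GM12878 and 2.59 against HepG2, by 1.5 and 0.62 without replicate 2, and by 4.15 and 3.33 without replicate 1. The K562 call of SESN2 against GM12878 was lost without GM12878 replicate 2 (adjusted p = 0.0873, edgeR). The counts for K562 in this list thus rest largely on 1 library, replicate 2.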

How the data were processed

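Per the labels, total RNA of each line was read by Oxford Nanopore sequencing and the deposited tables are TALON abundance tables. The aligner was minimap2 and the build hg38, as the submitters' processing notes name them. Versions of both programs are not given in the sources used here. The deposited tables hold read counts per transcript model, not normalized, per the file headers, with each model's length and exon number as other values. Names and coordinates came from GENCODE release 29 on GRCh38.

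Counts of all models of a gene were summed. Genes were filtered with filterByExpr, scaled with TMM and fitted in edgeR 4.0.16 under R 4.3.3 (robust glmQLFit, then a two-sided glmQLFTest), in 1 model over 8 libraries with the cell line as the only term. The filter asks for enough reads in only as many libraries as the smallest line has. A gene could therefore enter the test only through a line where it was high, as did EIF5AL1, EEF1A2, ABCE1 and ASNS, among others. PPP1R15A passed through K562 and GM12878 replicate 3 and would not have passed without K562. Adjustment was Benjamini-Hochberg over 4778 genes within a comparison. A call needed an adjusted p under 0.05 and an absolute log2 change of at least 1. CPM used TMM factors, and SE is the log2 change divided by the square root of the F statistic. A count of 0 over a line allows up to 3 reads, which is 6.76 CPM in K562, 3.76 in HepG2 and 7.63 in GM12878. Usage of known transcripts and of model classes was tested with diffSpliceDGE, on features of 10 or more reads, where the gene had 10 or more such reads per line. A call needed a Simes p that was under 0.05 after adjustment and a share moved by 10 percentage points or more. On simulated data for HepG2 against GM12878 (4103 genes), an adjusted p under 0.05 recovered 52% of 100 genes changed 2-fold and 99% of 100 changed 4-fold, and 7.36% of genes passing were false.

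The members and gene lists were chosen with earlier results of these data known. Values per library are given for called genes, the most read genes and paralogue pairs. Alternatives were DESeq2 1.42.0, its size factors, no filter, Known models only, no Genomic models, leaving out each library, a replicate block, other usage limits and, chosen after seeing the data, no scaling factor. The level of the Y-linked EIF1A copy and all protein sequences were left out.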

Additional observations from a re-analysis of the deposited data

How the results depend on the processing

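Calls of initiation factor genes numbered 12, 3 and 9 in HepG2 against GM12878, K562 against GM12878 and K562 against HepG2, in this order throughout. With reads of Known models only they were 5, 1 and 5, and over all genes 777, 459 and 714, where 2348, 1371 and 2105 were called with all models. Without Genomic models K562 against GM12878 gave 1. With no scaling factor K562 against HepG2 gave 15. With no filter on low counts 3746 genes were called in HepG2 against GM12878 and 3298 in K562 against HepG2. The cause of these shifts was not tested. Leaving out each library gave 8 to 12, 2 to 6 and 6 to 11 calls, and over all genes 1898 to 2979, 1114 to 1855 and 1675 to 2503. These ranges include fits with 1 K562 library left, in which the filter was run again and could admit other genes. Counts of changed transcript usage and model classes were 0 under every alternative run, 0 to 0 when libraries were left out.

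Replicate numbers did not pair the libraries: deviations of same-numbered libraries correlated at -0.053 to 0.038. With the replicate block the calls were 11, 3 and 8, and over all genes 2309, 1291 and 1998. No log2 change of a called gene reversed its sign under any alternative. The K562 line has 2 libraries, and GM12878 replicate 3 only 70374 reads, so genes with few reads, such as EIF2AK2, EIF2AK3 and EIF2AK4, could not be compared.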
